A study of Homo sapiens with 15 samples.

Results

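The RNA that co-purified with UPF1 isoform 2 (UPF1-2) was compared with the total RNA of the same cells. The comparison used 6 of the 15 libraries of the series, 3 affinity purifications (IP) and 3 total RNA libraries, and all 12261 genes of the deposited table. Each IP was set against the total RNA library with its replicate number. The 6 libraries with UPF1 isoform 1 (UPF1-1) served as a comparison.

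The cells were HEK-293 Trex, an established human embryonic kidney line in which doxycycline switches on a transgene. All cells received 200 ng/mL doxycycline. The UPF1-2 cells expressed CLIP-tagged UPF1 isoform 2 and the UPF1-1 cells CLIP-tagged UPF1 isoform 1. A further line with GFP gave total RNA only, so no library measured what the purification recovers without tagged UPF1. Whether a line was 1 clone or a pool, and whether the replicates were separate cultures, is not given in the sources used here. Line and isoform cannot be told apart, and p-values measure only the spread between these libraries. Of 8 markers of the line, 6 were listed, among them VIM at 113, 115 and 181 TPM in UPF1-2 total RNA, and none of 12 markers of liver, blood, fibroblast or cervical carcinoma cells was listed.

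UPF1 is an ATP-dependent RNA helicase that binds RNA with little sequence preference and is required for nonsense-mediated decay (NMD), the pathway that degrades mRNAs on which translation ends too early or ahead of a long stretch of untranslated RNA. UPF2 binds UPF1 and activates its helicase, the kinase SMG1 phosphorylates it, and SMG5 and SMG6 act on the phosphorylated form. Alternative splicing gives UPF1 a longer or a shorter regulatory loop in its helicase domain, and isoform 2 has the shorter loop. Translating ribosomes displace UPF1 from coding regions, and UPF1 is found mainly on the untranslated ends of mRNAs.

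The mRNAs recovered least with UPF1-2 included most mRNAs of cytosolic ribosomal proteins. These mRNAs are known for a 5′ terminal oligopyrimidine (TOP) tract, a C at the first transcribed base followed by pyrimidines, through which growth signals control their translation. Start regions at the first listed start are shown for 5 genes with such a start there and 3 without, to place sequence beside recovery. They are from RefSeq's GRCh38.p14 table and run from 15 bases before the start through the first 15 transcribed bases, 5′ to 3′ on the transcribed strand, with the first 5 transcribed bases in capitals. The windows are RPS21 at chr20:62387088-62387117, RPLP1 at chr15:69452803-69452832, COX7C at chr5:86617926-86617955, EIF4B at chr12:53006441-53006470, EEF2 at chr19:3985449-3985478, NUP107 at chr12:68686963-68686992, DHX9 at chr1:182839332-182839361 and POLA1 at chrX:24693903-24693932, on the plus strand except EEF2, which is on the minus strand. RPLP1 and COX7C were chosen after their values were seen.
RPS21: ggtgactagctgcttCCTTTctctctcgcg
RPLP1: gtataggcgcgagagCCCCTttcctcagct
COX7C: ccatttcccatctttCTTTTcagtccttgc
EEF2: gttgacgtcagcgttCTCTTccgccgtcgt
EIF4B: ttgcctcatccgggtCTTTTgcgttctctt
NUP107: gactgcttccgggtcGAAGGgcttgcttcc
DHX9: agcgccgcggtcggaGCCATttcgccgatt
POLA1: tgtctcggcccccgcGCCAGttttgggctg
RPS21 and RPLP1 encode ribosomal proteins and COX7C a cytochrome c oxidase subunit, and all were low in the IP. EEF2 (elongation factor 2) and EIF4B (an initiation factor) start the same way and were not low. NUP107, DHX9 and POLA1 were among the RNAs recovered most.

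The listed genes held 44.7 to 69.6% of the TPM scale in the UPF1-2 IPs and 12.2 to 18.97% in total RNA, with the highest share of each kind in replicate 3. The labels do not make clear whether rRNA was depleted from the IP RNA as from total RNA, and its part in these shares was not tested. TPM is a level per length of RNA, scaled to the same total in each library. The median gene was higher in the IP by 2.45 to 2.63 on the log2 scale in the 3 replicates before any adjustment. Library medians were set equal, and every ratio below is log2(TPM + 0.5) in the IP minus total RNA relative to that shift. A ratio of 0 means a rise equal to the shift of the library medians, while the median ratio of all genes was -0.17. The pseudocount of 0.5 TPM shrinks the rise of genes with low TPM before medians are set equal, so their ratios are moved down by construction. Without this step every ratio is higher by the shift, and setting upper quartiles equal instead moves the median ratio of all genes from -0.17 to -0.29.

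UPF1 itself, the induced gene, was listed at 2213, 2064 and 5259 TPM in the UPF1-2 IPs and at 68.9, 72.7 and 171 TPM in the total RNA of these cells. In GFP total RNA it was at 3.24, 3.796 and 8.57 TPM. All 3 IPs lay above all 3 total RNA libraries once medians were equal. The ratio was 2.40 ± 0.09 (SE, n = 3 pairs), with an adjusted p of 2.9e-07 by limma with Benjamini-Hochberg adjustment. Here and below, the SE of a ratio or of a difference is that of limma's fit. It uses a spread estimated from all 12 UPF1-1 and UPF1-2 libraries and drawn toward that of other genes, not the 3 ratios alone. The table gives 1 transcript per gene, so the tagged and the cell's own UPF1 mRNA cannot be told apart.

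Of 12261 genes, 3832 (31.3%) were higher in the UPF1-2 IP than in total RNA and 5531 (45.1%) were lower, at an adjusted p under 0.05. Of the called genes 40.9% were thus higher, against 98.5% without equal medians. More than 2-fold higher were 963 genes (7.85%) and more than 2-fold lower 2678 (21.8%). After centring, all 3 IPs lay above all 3 total RNA libraries in 3025 genes (24.7%) and below them in 4633 (37.8%). The low side reached farther, with the 1st percentile of ratios at -3.29 and the 99th at 1.58. Ratios of the 3 replicates correlated across genes at r of 0.92 to 0.96, and genes are not independent replicates. Among the 3235 genes with at least 5 TPM in both kinds of library, the median SD of the ratio over replicates was 0.131.

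**Figure D1:**
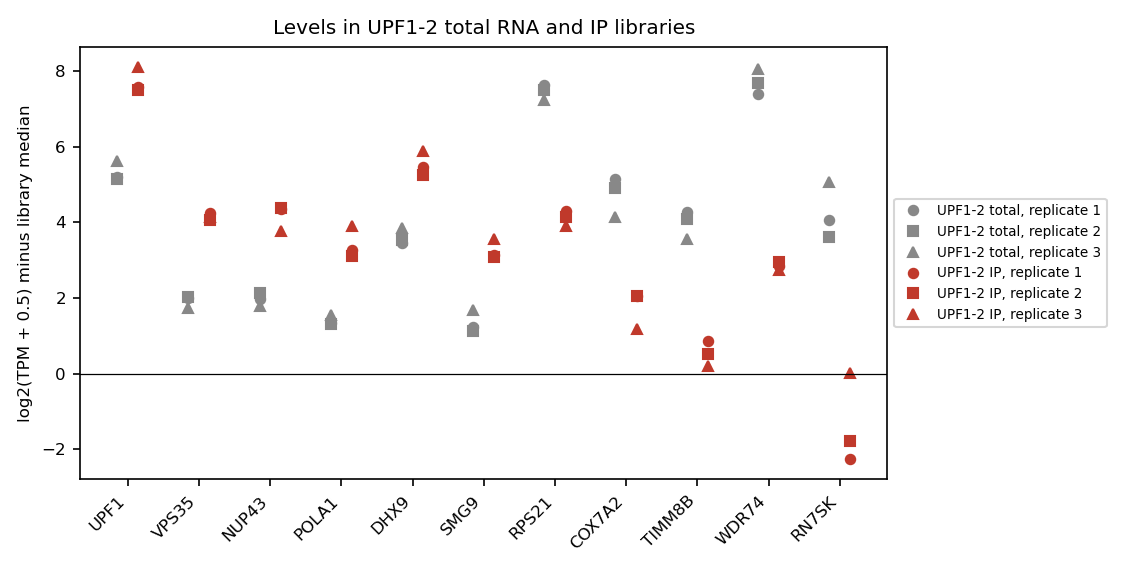
Level of 11 genes in each UPF1-2 library, as log2(TPM + 0.5) minus the median of that library; gray symbols are total RNA, red symbols IPs, and the shape gives the replicate. UPF1, VPS35, NUP43, POLA1, DHX9 and SMG9 lie higher in all 3 IPs than in all 3 total RNA libraries, and RPS21, COX7A2, TIMM8B, WDR74 and RN7SK lie lower.

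The RNAs recovered most included mRNAs of nuclear pores, DNA replication, helicases and NMD itself. VPS35, a subunit of the retromer that sorts endosomal cargo, was at 220, 192 and 336 TPM in the IPs and 7.11, 7.85 and 10.98 TPM in total RNA, a ratio of 2.23 ± 0.11 (SE, n = 3 pairs). NUP43, a nuclear pore protein, was at 236, 236 and 259 TPM in the IPs and 6.94, 8.52 and 11.5 TPM in total RNA, a ratio of 2.19 ± 0.09. The IPs of both genes lay above their total RNA without overlap, which the rule that named the highest genes required. DHX9, an RNA helicase that unwinds double strands, was at 512, 438 and 1118 TPM against 20.4, 23.3 and 49.2 TPM, a ratio of 1.92 ± 0.09. POLA1, the catalytic subunit of DNA polymerase alpha, was at 113, 97.5 and 280 TPM against 4.25, 4.62 and 9.59 TPM, a ratio of 2.03 ± 0.13. For both, the highest value of either kind was in replicate 3 and the groups did not overlap after centring, again by that rule. The largest adjusted p of these 4 genes by limma was 2.9e-06.

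Other RNAs of this kind were the pore mRNAs NUP160 at a ratio of 2.14 ± 0.09 (SE), NUP107 at 1.91 ± 0.07 and NUP155 at 1.89 ± 0.08. CDCA5 (sororin, which protects sister chromatid cohesion) was at 1.94 ± 0.15, SLC25A10 (the mitochondrial dicarboxylate carrier) at 1.94 ± 0.14 and TAF13 (a TFIID subunit) at 1.92 ± 0.09. Their IPs lay above total RNA without overlap, as the naming rule required. DDB1, a subunit of a DNA damage-binding ubiquitin ligase, had the largest ratio of the table, 2.74 ± 0.62, with ratios of 5.04, 1.42 and 1.78. Its total RNA was listed at 0 TPM in replicate 1 and at 6.998 and 18.9 TPM in the other replicates, so the size of the ratio rests on replicate 1, and without that replicate it was 1.60 with an adjusted p of 0.0014 by limma.

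The RNAs recovered least included small nuclear RNAs and mRNAs of ribosomes and mitochondria. RN7SK (7SK, which holds the elongation factor P-TEFb inactive) was at 1.93, 2.81 and 18.5 TPM in the IPs and 31.1, 24.8 and 116 TPM in total RNA, a ratio of -5.60 ± 0.23 (SE, n = 3 pairs). WDR74 was at 83.3, 87.2 and 126 TPM against 317, 422 and 929 TPM, a ratio of -4.87 ± 0.18. The WDR74 locus also holds a copy of the U2 small nuclear RNA gene, whose reads cannot be told apart from WDR74 mRNA here. SNORD3A (U3, which guides processing of the ribosomal RNA precursor) had a ratio of -4.63 ± 0.36 and RNU12 (the U12 RNA of the minor spliceosome) -3.77 ± 0.18. All of these lay below total RNA without overlap, as the naming rule required.

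Among coding RNAs, SNRPD3, a protein of the Sm ring around spliceosomal RNAs, was at 6.40, 1.505 and 8.93 TPM in the IPs and 20.5, 19.4 and 33.6 TPM in total RNA, a ratio of -4.77 ± 0.27 (SE). TIMM8B, which chaperones proteins across the mitochondrial intermembrane space, was at 20.6, 15.8 and 21.2 TPM against 35.8, 34.5 and 40.2 TPM, a ratio of -3.45 ± 0.09. Every IP lay below every total RNA library for both, before and after centring, and the naming rule required this after centring. RPS16, RPS29, RPL28 and RPS21 were also among the 12 lowest genes with at least 5 TPM in the IP and groups apart, with ratios of -3.59 to -3.33. The largest adjusted p of the low genes named so far was 6.6e-06 by limma.

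In the UPF1-2 IPs, mRNAs of cytosolic ribosomal proteins were under-recovered as a family, relative to the shift of the library medians. Of 82 listed, 81 were lower, 80 of them more than 2-fold, none was higher, and the median ratio was -2.21 against -0.17 for all genes. Together they held 24.2% ± 3.13 (SD, n = 3) of the listed TPM in total RNA and 7.48% ± 0.94 in the IP. Of all genes 45.1% were lower, and 21.8% were more than 2-fold lower. Without equal medians the median ratio of the 82 was 0.30. RPS21 was at 230, 203 and 284 TPM in the IPs and 376, 372 and 520 TPM in total RNA, a ratio of -3.33 ± 0.08 (SE). RPS29 was at 469, 438 and 379 TPM against 946, 828 and 658 TPM, a ratio of -3.42 ± 0.11. Both lay below total RNA in all replicates, as the rule for the lowest genes required. Many ribosomal protein genes have near-identical pseudogene copies, so reads may be split among them.

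Of the 64 ribosomal protein genes with a RefSeq start, 47 (73.4%) start with a C followed by 4 bases, each C or T. This was read on the transcribed strand only at the annotated starts, and a gene counted if any of its starts fit. The same share was 5.14% of all RefSeq genes with a start and 7.66% of the 9253 matched genes of the series. The 47 with such a start had a median ratio of -2.32 and the 17 without it -1.92. Outside ribosomal proteins, 662 genes had such a start, and 221 of them were higher in the IP, 293 lower, with a median of -0.15. All genes had about the same shares, 31.3% higher and 45.1% lower, and a median of -0.17. With genes ranked by ratio into 5 equal groups, the share with such a start was 9.89% in the group with the lowest ratios and 6.43% in that with the highest. In the 25 further mRNAs known for a TOP tract, 16 were lower and 3 higher with a median of -0.48. TPT1, a translationally controlled tumor protein, was at -2.49 ± 0.08 (SE), EEF1B2, an exchange factor for elongation factor 1A, at -2.17 ± 0.07, and EIF4B at 0.79 ± 0.06. EEF2, whose IP and total RNA overlapped, was at 0.25 ± 0.07 with an adjusted p of 0.012 by limma, and its adjusted p was 0.19 without replicate 1.

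Replication-dependent histone mRNAs, which end in a stem-loop instead of a poly(A) tail, were lower in 58 of 58 cases, all by more than 2-fold, with a median ratio of -2.05. UPF1 is known to take part in their decay at the end of DNA replication. They held 12.3% ± 1.99 (SD, n = 3) of the listed TPM in total RNA and 4.65% ± 0.82 in the IP. Of all genes 45.1% were lower, and 21.8% were more than 2-fold lower. Without equal medians the median ratio of the 58 was 0.46. HIST1H2AK was at 93.7, 82.2 and 86.1 TPM in the IPs and 89.0, 88.2 and 95.6 TPM in total RNA. These values overlapped as deposited, and after centring the IPs lay below total RNA, with a ratio of -2.58 ± 0.08 (SE). HIST1H4J was at -2.43 ± 0.10 and HIST1H2AE at -2.39 ± 0.10. The 54 core histones had a median of -2.06 and the 4 linker histones -1.54. Histone genes are near-identical copies, so the split of reads among them is uncertain.

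**Figure D2:**
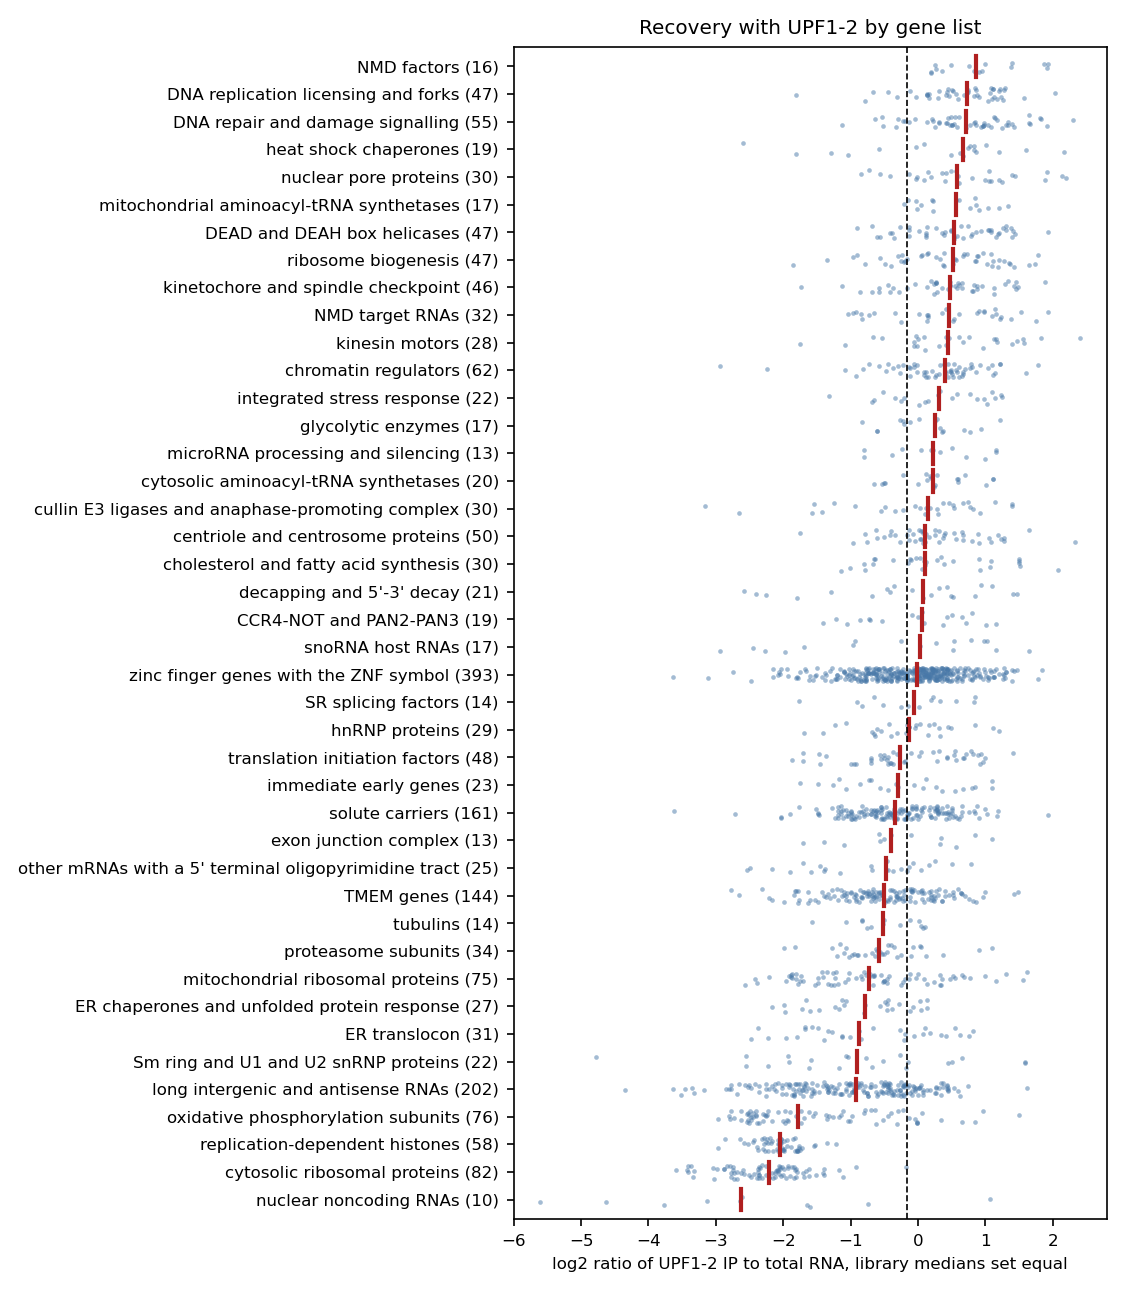
Each point is a gene, placed by its log2 ratio of UPF1-2 IP to total RNA with library medians equal; rows are the gene lists with at least 10 members (number in brackets), red bars are list medians, and the dashed line is the median of all genes at -0.17. Nuclear noncoding RNAs, cytosolic ribosomal proteins and histones have medians of -2.63, -2.21 and -2.05, and NMD factors the highest at 0.86; without equal medians 43 of 44 list medians lie above 0, and the small positive medians of centriole, snoRNA host, decapping, CCR4-NOT and cholesterol genes fall below 0 with upper quartiles equal.

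Mitochondrial mRNAs made in the nucleus were mostly under-recovered, with differences between complexes. Of 76 oxidative phosphorylation mRNAs, 64 were lower and 5 higher (45.1% and 31.3% of all genes), with a median of -1.78. Without equal medians the median of the 76 was 0.74. COX7A2, a cytochrome c oxidase subunit, was at 47.5, 47.1 and 42.2 TPM in the IPs and 66.2, 60.8 and 60.4 TPM in total RNA, a ratio of -2.97 ± 0.08 (SE). The 12 mRNAs of its complex had a median of -2.39, the 39 of complex I -1.82 and the 14 of ATP synthase -1.63. The 4 mRNAs of succinate dehydrogenase were the exception, with 2 higher, 1 lower and a median of 0.42, and SDHD was at 0.97 ± 0.13 with overlapping groups. These subfamilies were grouped by symbol after values were seen. Of 75 mitochondrial ribosomal proteins, 51 were lower and 16 higher, with a median of -0.73 (-1.12 for the 46 of the large and -0.35 for the 28 of the small subunit). MRPS18C was at -2.57 ± 0.11, MRPL41 at -2.42 ± 0.13 and MRPS27 at 1.30 ± 0.08. Mitochondrial aminoacyl-tRNA synthetases, which charge tRNAs inside the organelle, stood on the other side: 11 of 17 were higher and none lower, with a median of 0.57. EARS2 was at 1.21 ± 0.08 and TARS2 at 0.86 ± 0.08.

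The mRNAs of NMD factors were recovered more than the median gene. Of 16 other than UPF1, 12 were higher and none was lower (31.3% and 45.1% of all genes), with the highest median of all lists, 0.86. SMG9, a regulator of the SMG1 kinase, was at 103, 95.5 and 223 TPM in the IPs and 3.94, 4.02 and 10.5 TPM in total RNA, a ratio of 1.91 ± 0.09 (SE). SMG5 was at 179, 193 and 300 TPM against 10.8, 11.1 and 23.9 TPM, a ratio of 1.37 ± 0.11. In both the groups did not overlap, which for SMG9 the rule for the highest genes required. GSPT1, the release factor eRF3a, was at 0.76 ± 0.08. Some of these mRNAs, SMG5 among them, are known to be NMD targets themselves.

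Of 32 mRNAs and noncoding RNAs known as NMD targets, 18 were higher, 8 lower and 6 did not pass, with a median of 0.47. DDIT3 (CHOP, a stress transcription factor) was at 171, 163 and 141 TPM in the IPs and 10.4, 10.1 and 13.6 TPM in total RNA, a ratio of 1.23 ± 0.13 (SE). SNHG15, a snoRNA host RNA, was at 300, 311 and 276 TPM against 21.8, 20.6 and 25.6 TPM, a ratio of 1.16 ± 0.14. Neither overlapped its total RNA. ZFAS1, another snoRNA host, was at 66.1, 72.5 and 41.7 TPM against 20.1, 21.0 and 18.1 TPM, a ratio of -0.97 ± 0.17, with overlap after centring. Of the 17 snoRNA hosts, 8 were higher and 7 lower (31.3% and 45.1% of all genes), from NOP56 at 1.65 ± 0.09 to SNHG3 at -2.45 ± 0.08 among those named. In the integrated stress response 12 of 22 were higher and 6 lower, with DDIT4 at 1.25 ± 0.07, SESN2 at 1.14 ± 0.07 and PPP1R15A, whose groups overlapped, at -0.66 ± 0.08. The list of NMD targets shares members with others, so their counts are not independent. SMG5 is also in the NMD factor list, DDIT3 in the integrated stress response list and SNHG15 in the snoRNA host list. Exon junction complex mRNAs, whose proteins mark spliced junctions for NMD, were near the background, with 4 of 13 higher and 6 lower against 31.3% and 45.1% of all genes. CASC3 was at 1.10 ± 0.09, while MAGOH was at -1.71 ± 0.08, SAP18 at -1.39 ± 0.08 and ALYREF at -1.09 ± 0.12.

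DNA replication mRNAs were recovered well, with 34 of 47 higher and 5 lower (31.3% and 45.1% of all genes) and a median of 0.73. MCM4, a subunit of the replicative helicase, was at 627, 562 and 929 TPM in the IPs and 32.5, 33.6 and 58.4 TPM in total RNA, a ratio of 1.57 ± 0.07 (SE) without overlap. Of 9 MCM mRNAs 8 were higher, and of 6 origin recognition mRNAs 5. RPA3, the smallest subunit of the single-strand binding protein, was at -1.80 ± 0.09. In DNA repair 42 of 55 were higher and 8 lower, with a median of 0.72. The mismatch repair protein MSH6 was at 1.33 ± 0.12, XRCC5 (Ku80, which binds broken ends) at 1.17 ± 0.07, and RAD51C at -0.52 ± 0.11.

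Mitotic and nuclear pore mRNAs were mostly higher in the IP, where 31.3% of all genes were higher and 45.1% lower. At the kinetochore and spindle checkpoint 29 of 46 were higher and 10 lower, with a median of 0.47. SPC24, of the complex that grips microtubules, was at 212, 221 and 294 TPM in the IPs and 8.88, 9.01 and 15.8 TPM in total RNA, a ratio of 1.89 ± 0.11 (SE) without overlap. CDCA8 (borealin) was at 1.45 ± 0.07 and CENPW, a centromere histone-fold protein, at -1.74 ± 0.07. Of 28 kinesins 16 were higher and 4 lower, with KIF11, which pushes spindle poles apart, at 1.57 ± 0.10. Of 30 nuclear pore mRNAs 21 were higher and 4 lower, with a median of 0.58, and SEC13, shared with secretory coats, was at -0.85 ± 0.08. The 14 tubulins went the other way: 9 were lower and none higher, with TUBG1 at -1.07 ± 0.08 and TUBB2A at -0.84 ± 0.09. Of 50 centriole and centrosome mRNAs 21 were higher and 8 lower, with a median of 0.11 that fell to -0.01 with upper quartiles equal.

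Among RNA-handling proteins, helicases and the splicing machinery differed, with 31.3% of all genes higher and 45.1% lower as the background. Of 47 DEAD and DEAH box helicases 31 were higher and 8 lower, with a median of 0.54. DDX6, a repressor of translation and activator of decapping, was at 78.4, 81.9 and 171 TPM in the IPs and 4.58, 5.75 and 9.46 TPM in total RNA, a ratio of 1.41 ± 0.10 (SE) without overlap. DDX27 was at -0.61 ± 0.14, with overlap. Of 22 Sm and U1 or U2 snRNP proteins 15 were lower and 5 higher, with a median of -0.91. By symbol stem, all 11 SNRP mRNAs were lower with a median of -1.61, whereas 4 of 9 SF3 mRNAs were higher and 3 lower with a median of -0.14. SNRPG was at -2.56 ± 0.07 and SF3B3, a large U2 subunit, at 1.59 ± 0.07. Decapping and 5′-3′ decay mRNAs, a list that holds LSM1 to LSM7, were higher in 9 and lower in 9 of 21 cases, with a median of 0.08 that was -0.04 with upper quartiles equal and -0.14 with a pseudocount of 0.1 TPM. Within it the ring proteins LSM1 to LSM7, grouped after values were seen, were lower in 6 of 7 cases with a median of -1.80.

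SR proteins, hnRNPs, deadenylases and microRNA factors had few members, and their counts are to be read against 31.3% of all genes higher and 45.1% lower. Of 14 SR mRNAs 5 were higher and 6 lower, with SRSF9 at -1.77 ± 0.07 (SE) and SRSF1 at 0.84 ± 0.08. Of 29 hnRNP mRNAs 6 were higher and 11 lower, with PCBP1 at -1.41 ± 0.10 and PTBP1, a protein known to shield mRNAs from NMD, at 1.20 ± 0.07. In a list of CCR4-NOT, PAN2-PAN3 and related factors 8 of 19 were higher and 6 lower. PARN, a deadenylase outside both complexes, was at 1.16 ± 0.07 and BTG3 at -1.05 ± 0.07. Among microRNA factors 5 of 13 were higher and 4 lower, with XPO5, which exports precursors, at 1.00 ± 0.07 and PRKRA at -0.80 ± 0.09.

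Initiation factors as a list were close to the background. Of 48, 17 were higher and 24 lower (31.3% and 45.1% of all genes), with a median of -0.26 against -0.17 for all genes. EIF4H, a helper of the eIF4A helicase, was at 429, 436 and 902 TPM in the IPs and 26.2, 28.1 and 62.6 TPM in total RNA, a ratio of 1.41 ± 0.07 (SE). EIF3K, a small eIF3 subunit, was at 346, 334 and 437 TPM against 193, 186 and 258 TPM, a ratio of -1.70 ± 0.09. Neither overlapped after centring. Of 47 ribosome biogenesis mRNAs 29 were higher and 10 lower, with a median of 0.52, opposite in side to the ribosomal proteins themselves. WDR75, of the small subunit processome, was at 1.78 ± 0.17, and FBL, the snoRNA-guided methyltransferase fibrillarin, at -1.85 ± 0.17. Of 20 cytosolic aminoacyl-tRNA synthetases 11 were higher and 5 lower, with LARS at 1.12 ± 0.12, NARS at 1.11 ± 0.08 and MARS at -0.65 ± 0.09.

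Counts for protein folding and turnover are to be read against 31.3% of all genes higher and 45.1% lower. Of 19 heat shock chaperones, mostly cytosolic, 12 were higher and 5 lower, with a median of 0.66. HSP90AB1, the constitutive cytosolic HSP90, was at 1285, 1041 and 3010 TPM in the IPs and 109, 117 and 276 TPM in total RNA, a ratio of 0.87 ± 0.09 (SE) without overlap, while HSPE1, a mitochondrial co-chaperonin in this list, was at -1.82 ± 0.07. Of the 8 subunits of the cytosolic chaperonin CCT 2 were higher and 3 lower, with a median of -0.12 that rises to 0.10 with a pseudocount of 1 TPM. Of 27 ER chaperone and unfolded protein response mRNAs 21 were lower and none higher, with a median of -0.78 and SDF2L1 at -2.17 ± 0.12 and MANF at -1.97 ± 0.14. In the ER translocon 19 of 31 were lower and 6 higher, with a median of -0.88. SEC61G, a small channel subunit, was at 22.5, 19.9 and 20.4 TPM against 17.9, 19.6 and 23.7 TPM, which overlapped as deposited and gave -2.47 ± 0.08 after centring. SSR3 was at 0.82 ± 0.11 with overlap. Of 34 proteasome subunits 26 were lower and 3 higher, with PSMB10 at -1.98 ± 0.15 and PSMB2 at 1.10 ± 0.09.

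Membrane protein lists are to be read against 45.1% of all genes lower and 31.3% higher. Of 161 solute carriers 83 were lower and 41 higher, with a median of -0.35 that was -0.09 with a pseudocount of 0.1 TPM and SLC25A5, the ADP/ATP carrier ANT2, at -0.99 ± 0.08 (SE). Of 144 TMEM genes 86 were lower and 23 higher, with a median of -0.50, TMEM258 at -2.78 ± 0.12 and TMEM129 at 1.48 ± 0.13. In metabolism, 13 of 30 cholesterol and fatty acid synthesis mRNAs were higher and 8 lower (31.3% and 45.1% of all genes), with fatty acid synthase FASN at 1.51 ± 0.14, the desaturase SCD at 1.07 ± 0.09 and EBP at -1.15 ± 0.12. Of 17 glycolytic mRNAs 8 were higher and 4 lower, with hexokinase HK1 at 0.93 ± 0.08, whose groups overlapped, and GAPDH at -0.83 ± 0.09.

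Regulators of transcription and the cell cycle were mixed. Of 393 ZNF genes 120 were higher and 149 lower, near the 31.3% and 45.1% of all genes, with a median of -0.02 that was 0.11 with a pseudocount of 0.1 TPM. ZNF768 was at -2.05 ± 0.13 (SE) and ZNF711 at 0.92 ± 0.09. Of 62 chromatin regulators 33 were higher and 13 lower, with SMARCD1, a SWI/SNF subunit, at 1.22 ± 0.08. Of 30 cullin ligase and anaphase-promoting complex mRNAs 14 were higher and 10 lower, with CDC23 at 1.40 ± 0.07 and RBX1, the small RING subunit of cullin ligases, at -3.16 ± 0.20. Of 23 immediate early genes 8 were higher and 12 lower, again near the background, with ATF3 at 1.10 ± 0.07 and JUND at -1.26 ± 0.08.

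RNAs listed as noncoding were mostly called lower in the IP, relative to the shift of the library medians. Among 10 RNAs that act in the nucleus, 9 were lower and 1 was higher, with a median of -2.63. Of 202 RNAs taken as long intergenic or antisense by symbol alone, 148 were lower and 15 higher. Their median was -0.92, and -0.72 with a pseudocount of 0.1 TPM. Such a symbol does not show that an RNA is noncoding. Of all genes 45.1% were lower and 31.3% higher. In the group of genes with the lowest total RNA, described below, 64.2% were lower and 9.05% higher. That group had a median of -0.65, and -0.24 with 0.1 TPM. Together the 202 RNAs held a mean of 0.387% of the listed TPM in total RNA and 0.541% in the IP. The part of a low level or of the pseudocount in these counts was not tested. LINC00493 was at 72.5, 73.4 and 61.6 TPM in the IPs and 83.8, 77.6 and 72.9 TPM in total RNA, a ratio of -2.69 ± 0.07 (SE), with all IPs below all total RNA libraries after centring. FAM211A-AS1 was at 1280, 1322 and 1191 TPM against 152, 147 and 197 TPM, a ratio of 0.43 ± 0.13, with overlap after centring, and its adjusted p by limma was 0.10 without replicate 1 and 0.061 without replicate 2. Of the 3 cytosolic noncoding RNAs listed, DANCR was at -1.97 ± 0.14, OIP5-AS1 at -0.25 ± 0.08, and LINC00657 (NORAD, which binds Pumilio proteins) at 0.02 ± 0.11 with an adjusted p of 0.88 by limma. The adjusted p of OIP5-AS1 by limma rose from 0.023 to between 0.056 and 0.084 when any replicate was left out, and without replicate 3 its ratio was -0.15.

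The ratio was compared across levels in total RNA. Across 5 equal groups of genes, from the lowest to the highest mean UPF1-2 total RNA, the median ratio was -0.65, -0.18, 0.13, 0.13 and -0.29. The share of genes called higher was 9.05% in the lowest group, 26.2%, 43.1% and 45.4% in the next groups, and 32.4% in the highest. The pseudocount moves the lowest group: its median was -0.24 with 0.1 TPM and -0.83 with 1 TPM, and the highest group was at -0.49 and -0.10. The total RNA values also enter both the level and the ratio, so the pattern is a description of these settings only.

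**Figure D3:**
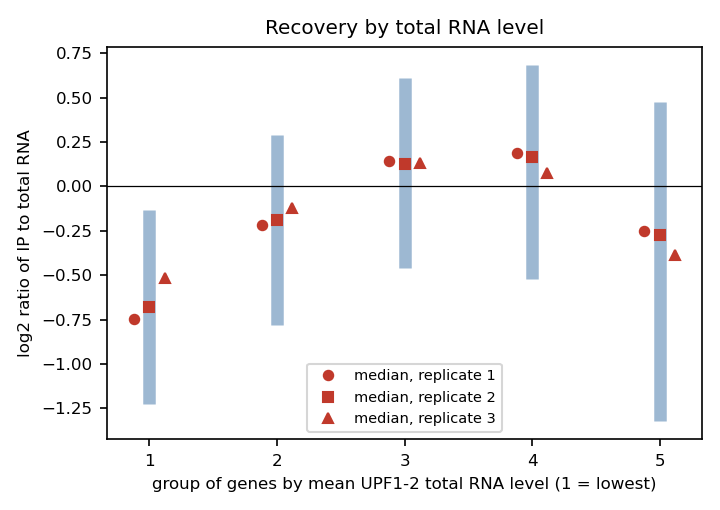
Median log2 ratio of UPF1-2 IP to total RNA in each replicate (symbols) and the range from the lower to the upper quartile of the mean ratio (bars) for 5 equal groups of genes by UPF1-2 total RNA level (1 = lowest). Groups 3 and 4 have medians of 0.13, and group 1 has -0.65, which moves to -0.24 with a pseudocount of 0.1 TPM.

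The 10 most abundant RNAs of the UPF1-2 IPs differed in how well the replicates matched. ENO1, a glycolytic enzyme, was at 3089, 2801 and 4152 TPM in the IPs and 296, 299 and 515 TPM in total RNA, a ratio of 0.69 ± 0.10 (SE). ACTG1, cytoplasmic actin, was at 2164, 2092 and 4842 TPM against 208, 218 and 498 TPM, a ratio of 0.79 ± 0.07. The groups of both were apart. HFM1, a meiotic helicase, was at 22325, 6407 and 798 TPM in the IPs and 627, 2029 and 736 TPM in total RNA, with ratios of 2.53, -0.82 and -2.33 and an adjusted p of 0.80 by limma. DLG2, a synaptic scaffold protein, was at 1590, 755 and 4986 TPM against 92.9, 232 and 2921 TPM, with ratios of 1.46, -0.77 and -1.68. Neither had a common direction in the 3 replicates. SLCO5A1, a transporter outside the naming rule that was chosen after its values were seen, was at 5100, 1121 and 192 TPM against 137, 685 and 226 TPM, with ratios of 2.59, -1.77 and -2.68. Of the 3235 genes with at least 5 TPM, 8 had an SD over 1 between replicates, namely these 3 and DDB1, GNB2, PPIAP22, SRP9P1 and HMGN2P5. Without replicate 1 the ratio of HFM1 was -1.57, with an adjusted p of 0.0039 by limma. The deposited values do not show which part of the HFM1, DLG2 and SLCO5A1 loci the reads came from. High TPM here therefore does not show that their full mRNAs were abundant.

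**Figure D4:**
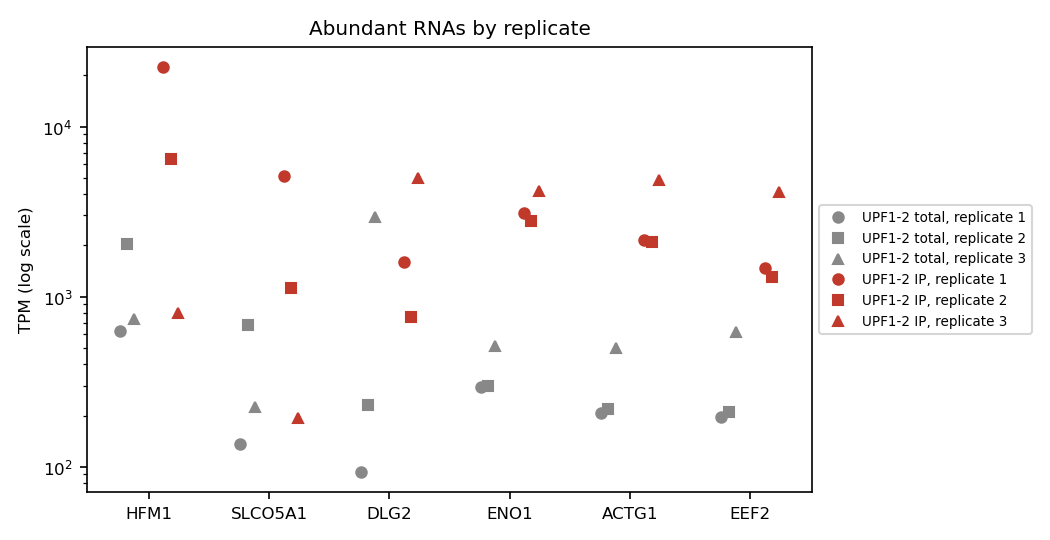
TPM on a log axis of 6 abundant RNAs in the UPF1-2 total RNA (gray) and IP (red) libraries, with the shape giving the replicate. HFM1 spans 798 to 22325 TPM and SLCO5A1 192 to 5100 TPM in the IPs, while ENO1, ACTG1 and EEF2 are highest in replicate 3 in both kinds of library.

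Ratios with UPF1-2 and UPF1-1 lay close together for most genes. Across 12261 genes the ratios with both isoforms, from separate libraries, correlated at r = 0.95, with a median absolute difference of 0.227, and 70 genes (0.571%) differed by more than 1. By limma's test of the difference itself, 725 genes (5.91%) had a higher ratio with UPF1-2 and 477 (3.89%) a lower ratio, 1202 (9.8%) in all. With upper quartiles set equal instead, 458 had a higher and 751 a lower ratio, so the balance of directions depends on the scaling. The list counts below are with medians equal. The calls needed the pairing by replicate number and equal medians. No gene passed without the block, where 865 had an unadjusted p under 0.05, or without equal medians, where 1906 did. None passed without replicate 1 (1599 unadjusted) or without replicate 2 (2541 unadjusted), and 533 and 429 passed without replicate 3.

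Several lists had more members higher with UPF1-2 than the 5.91% of all genes. Of 8 subunits of the CCT chaperonin, which folds actin and tubulin, 7 had a higher ratio with UPF1-2, and CCT7 had ratios of -0.66, -0.71 and -0.51 with UPF1-2 and -1.25, -1.26 and -1.22 with UPF1-1. HSP90AB1 had ratios of 0.93, 0.68 and 0.99 with UPF1-2 and -0.08, -0.16 and 0.09 with UPF1-1, a difference of 0.92 ± 0.12 (SE), for which limma gave an adjusted p of 0.017. EEF2 had ratios of 0.28, 0.17 and 0.29 against -0.42, -0.45 and -0.52. In each of these the ratios of the isoforms did not overlap. Higher with UPF1-2 were also 12 of 20 cytosolic aminoacyl-tRNA synthetases, 11 of 17 glycolytic enzymes, 14 of 34 proteasome subunits, 17 of 47 DEAD and DEAH box helicases, 12 of 30 nuclear pore mRNAs, 13 of 47 DNA replication and 13 of 47 ribosome biogenesis mRNAs, and no member of these lists was lower.

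WDR75 had ratios of 1.84, 1.64 and 1.86 with UPF1-2 and 0.76, 0.91 and -0.06 with UPF1-1, a difference of 1.24 ± 0.23 (SE). The ratios of the isoforms did not overlap, as the naming rule required, and the adjusted p was 0.022 by limma.

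The largest differences on the lower side included the noncoding RNAs LINC00657 and OIP5-AS1. LINC00657 had ratios of 0.15, -0.14 and 0.05 with UPF1-2 and 1.22, 1.00 and 1.56 with UPF1-1, a difference of -1.24 ± 0.16 (SE). OIP5-AS1 had ratios of -0.14, -0.16 and -0.45 against 0.87, 0.78 and 0.86, a difference of -1.08 ± 0.12. TMX1, a thioredoxin-like protein of the ER membrane, had ratios of -0.77, -0.94 and -1.19 against 0.29, 0.24 and 0.03, a difference of -1.15 ± 0.14. In all of these the 3 UPF1-2 ratios lay below the 3 UPF1-1 ratios, as the naming rule required, with an adjusted p of 0.017 by limma. Of 27 ER chaperone mRNAs 7 were lower with UPF1-2 and none higher, of 144 TMEM genes 16 and none, and of 31 ER translocon mRNAs 6 were lower and 1 higher. Of 393 ZNF genes 22 were lower and 7 higher, and of 202 long intergenic and antisense RNAs 8 were lower and none higher. The 8 of 202 are close to the 3.89% of all genes that were lower.

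Ribosomal protein and histone mRNAs were low with both isoforms. Cytosolic ribosomal proteins had a median ratio of -2.42 with UPF1-1 and -2.21 with UPF1-2, and 4 of 82 differed by the test, all higher with UPF1-2. Histones had medians of -2.38 and -2.05, with 4 of 58 higher with UPF1-2. Both counts are near the 5.91% of all genes. A difference that missed the threshold does not show that the isoforms act alike.

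**Figure D5:**
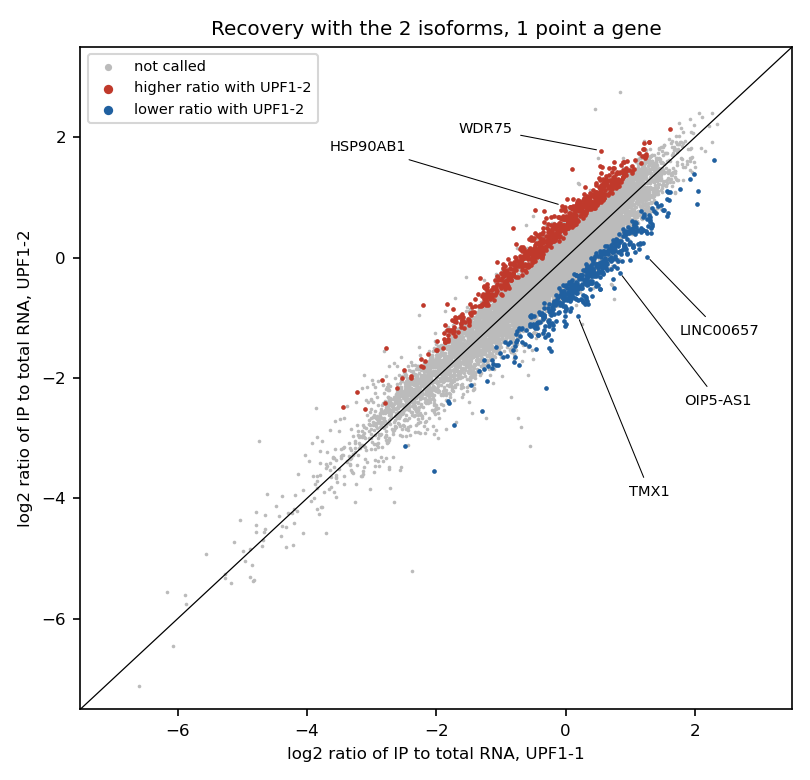
Log2 ratio of IP to total RNA with UPF1-1 (horizontal) and UPF1-2 (vertical) for each of 12261 genes, with library medians equal and the line of equality; red points are the 725 genes with a higher and blue points the 477 with a lower ratio with UPF1-2 at an adjusted p under 0.05. The points follow the line at r = 0.95, with WDR75 and HSP90AB1 above it and LINC00657, OIP5-AS1 and TMX1 below it.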

How the data were processed

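The labels' protocols give all 15 samples the same library text, in which rRNA is depleted from total RNA. Whether the IP RNA was depleted as well is not clear from it. The submitters' processing notes name cutadapt, kallisto, sleuth and hg19 without versions or roles. The deposited values are TPM per the file headers, for 12261 genes with 1 transcript each. Read depth is not given in the sources used here, so no counting error could be set. The authors' deposited ratio of IP to total RNA per replicate equalled the recomputed TPM ratio within 1e-06 in 100% of entries, with deposited medians of 7.91, 6.88 and 5.93.

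From these values log2(TPM + 0.5) was computed, library medians over all genes were set equal, and the 12 UPF1-1 and UPF1-2 libraries were modelled by limma (version 3.58.1, R 4.3.3) with its prior variance following the mean level (trend), the pair of IP and total RNA (isoform and replicate number) as a block and 4 residual degrees of freedom. Tests were 2-sided, with Benjamini-Hochberg adjustment over all 12261 genes and a threshold of 0.05. IP and total RNA libraries of 1 number deviated together from their group means (r of 0.60, 0.61 and 0.80), and the authors' ratios were formed within the number. Libraries of different numbers gave r from -0.70 to 0.61, so numbers 1 and 2 are not set apart from each other by this check.

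On 10 simulated data sets with 200 of 12261 genes changed, for UPF1-2 IP against total RNA, a median of 85.5% of 2-fold and 98% of 4-fold changes was recovered, and at most 7.04% of calls were false. In the measured libraries 9363 of 12261 genes (76.4%) were called in either direction. The share of false calls with that many genes called was not tested.

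Members and gene lists were chosen with earlier results of these data known, and 12 symbols (pseudogenes and non-members) were left out of the lists after they were seen. The 44 lists are described by counts and medians and were not tested. Some genes belong to several lists. Named genes were UPF1, the 12 highest and 12 lowest ratios with at least 5 TPM and groups apart, up to 3 members per list in its main direction and 1 in the other, the 10 most abundant in each kind of library, and 8 per direction for the isoform difference. Not all genes of this rule are printed. Symbols matched RefSeq starts for 9253 genes. Alternatives were other scalings, pseudocounts of 0.1 and 1, a filter of at least 1 TPM in at least 3 libraries, no block, no trend, the 6 UPF1-2 libraries alone and each replicate left out.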

Additional observations from a re-analysis of the deposited data

Results flagged for a closer look

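The difference in recovery between UPF1-2 and UPF1-1 was itself past the threshold for the 15 genes below, 7 higher and 8 lower with UPF1-2, which is what marked them. They are among the largest differences that the naming rule picks, and other genes named in the report, HSP90AB1 among them, also passed. Each value is the log2 ratio with UPF1-2 minus that with UPF1-1. Among genes with a higher ratio with UPF1-2, ATXN2L, a stress granule protein, differed by 1.42, JUP (plakoglobin, a cell junction protein) by 1.37 and MAGED1 by 1.31. The total RNA of all 3 was low, with 0.609, 1.65 and 0.518 TPM in UPF1-2 replicate 1. WDR75 differed by 1.24, WDR18, of the rRNA processing machinery, by 1.00, SUGP1, a splicing factor, by 0.99 and TCOF1 (treacle, a nucleolar protein) by 0.99. WDR75, WDR18 and TCOF1 act in ribosome production. Of 47 ribosome biogenesis mRNAs 13 were higher with UPF1-2 and none lower, against 5.91% and 3.89% of all genes. This was not particular to that list, as 11 of 17 glycolytic enzymes and 12 of 20 cytosolic aminoacyl-tRNA synthetases were also higher.

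Among genes with a lower ratio with UPF1-2, OGFRL1 differed by -1.25, LINC00657 by -1.24 and TMX1 by -1.15. ZNF678 differed by -1.14, RAP2C-AS1 by -1.12, C5orf15 by -1.10, LYSMD3 by -1.09 and OIP5-AS1 by -1.08. LINC00657, RAP2C-AS1 and OIP5-AS1 are noncoding RNAs. For each of these genes the 3 ratios of UPF1-2 lay on 1 side of the 3 of UPF1-1, as the naming rule required. None of them passed without the replicate block, without equal medians, without replicate 1 or without replicate 2. Without replicate 3, ATXN2L, JUP and MAGED1 also missed the threshold, with an adjusted p by limma of 0.10, 0.061 and 0.068.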

How the results depend on the processing

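Without the replicate block, 2583 genes were higher and 4226 lower in the UPF1-2 IP, and 9 of 115 named ratios lost their call; no direction changed. For the isoform difference no gene passed in either direction (0 higher, 0 lower). Without equal medians 11552 genes were higher and 181 lower (11070 and 136 without the block as well, a combination chosen after seeing the data), and 0 genes differed between the isoforms in either case. These named ratios then turned positive, with the same values with and without the block: ALYREF 1.42, BTG3 1.46, CCT7 1.89, CENPW 0.78, DANCR 0.55, DDX27 1.91, EBP 1.37, EEF1B2 0.35, EIF3K 0.81, FBL 0.66, GAPDH 1.69, HIST1H2AE 0.12, HIST1H4J 0.082, HSPE1 0.70, JUND 1.26, LSM7 0.12, MAGOH 0.81, MANF 0.55, MARS 1.86, MRPL41 0.10, OIP5-AS1 2.27, PCBP1 1.10, PPP1R15A 1.86, PRKRA 1.72, PSMB10 0.53, RAD51C 1.99, RPA3 0.71, SAP18 1.12, SDF2L1 0.35, SEC13 1.67, SEC61G 0.042, SLC25A5 1.53, SNHG3 0.063, SRSF9 0.75, TPT1 0.025, TUBB2A 1.68, TUBG1 1.44, ZFAS1 1.55, ZNF768 0.46. With upper quartiles equal the isoform difference had 458 genes higher and 751 lower with UPF1-2, with a pseudocount of 1 TPM 481 and 295, and without the trend 413 higher. Leaving out each replicate in turn gave 3138 to 3958 genes higher and 4729 to 5702 lower in the IP, and 0 to 533 higher and 0 to 429 lower for the isoform difference. For the isoform difference without the trend (339 lower), and for all other alternatives in both comparisons, counts stayed within 1.5 times. No called ratio among the 115 named changed direction under the filter, the pseudocounts, upper quartiles, no trend, the 6 libraries alone or any left-out replicate. The 4 residual degrees of freedom, the lack of a control purification and the unknown read depth limit all values, and TPM shares depend on the RNAs that are not listed.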
